A study of Homo sapiens with 7 samples.

Results

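H3K4me1 intervals were examined around 10 genes whose products write, assist or erase methylation of histone H3 lysine 4. The methyltransferases were KMT2A, KMT2B, KMT2C and KMT2D, the complex partners were KDM6A, NCOA6 and PAXIP1, and the demethylases were KDM1A, KDM5A and KDM5B. The 10 genes were taken by name from 20033 protein-coding genes of GENCODE release 44 on hg38. For each gene the window was its gene body plus 20 kb on either side, and every interval of the H3K4me1 peak lists that overlapped this window was counted. An interval is a stretch that the peak caller reported as enriched over input. The windows held 36 of the 64843 NC intervals and 54 of the 92135 KMT2D-KD intervals.

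The cells were SW1990, an established human pancreatic cancer line. NC cells carried a negative control shRNA and KMT2D-KD cells carried an shRNA against KMT2D, and the labels give shRNA as the treatment of both groups. KMT2D, EBF2 (a transcription factor) and H3K4me1 were each profiled by ChIP-seq in both conditions, with 1 library per target and condition and 1 input library whose condition the labels do not give. No replicates were therefore available. Each difference below is between 2 libraries, intervals of a library are not replicates, and no test between conditions was made. Whether the KMT2D-KD cells were a single clone is not given in the sources used here, and transcript or protein levels of the 10 genes were not analysed here.

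Monomethylation of H3K4 marks enhancers and the flanks of active promoters, whereas trimethylation marks active promoters themselves. KMT2C and KMT2D are the main enhancer monomethyltransferases, KMT2A and KMT2B act largely at promoters and developmental genes, and all of these enzymes work in complexes on a shared core. KDM6A, NCOA6 and PAXIP1 belong to the KMT2C and KMT2D complexes, and KDM6A is itself a demethylase of H3K27. KDM1A (LSD1) removes methyl groups from mono- and dimethylated H3K4, and KDM5A and KDM5B remove them from trimethylated H3K4. The comparison therefore asks how the mark lies on the genes of its own machinery with and without KMT2D knockdown.

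The depth recovered from the lists was 9.89 fragments per kb for NC H3K4me1 and 9.29 for KMT2D-KD H3K4me1, so that the knockdown library was the shallower one at 0.940 times NC. A summit in a member window held a median of 12.5 fragments in NC (9 to 18) and 11 in KMT2D-KD (7 to 20). Fragments are the sequenced pieces of DNA that overlap the summit of an interval, fold enrichment is their excess over the background, and −log10 q is larger for an interval called with more confidence. These are small counts, and an interval found in 1 list does not show that the other library had no signal there. The genome-wide background was 1.85 fragments for NC against 1.64 for KMT2D-KD. The lowest −log10 p of the lists was 3.30 and 3.12, so an interval could enter the knockdown list with 7 fragments and the NC list with 8. The part of these settings in the differences below was not tested. Epithelial marker genes had H3K4me1 intervals in 8 of 8 windows in both conditions, with 80 distinct intervals in NC and 83 in KMT2D-KD. Markers of immune, stromal, endothelial, endocrine and acinar cells had intervals in 7 of 10 windows in NC and in 8 of 10 in KMT2D-KD. These windows held 39 and 57 intervals in all, and INS and PRSS1 had none in either condition. The 2 marker groups overlapped in intervals per gene. Epithelial markers had 1 to 30 in NC (median 6) and 5 to 29 in KMT2D-KD (median 7). The other markers had 0 to 14 (median 3.5) and 0 to 19 (median 4). Of all protein-coding genes, 15478 had an interval in at least 1 list and 4555 had none. Having an interval thus does not by itself set epithelial markers apart.

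The sequence at KMT2D is shown first, since the promoter and the flanking H3K4me1 intervals of this gene differ plainly in base composition. The 250 bases before its RefSeq start (GRCh38.p14, chr12:49060795-49061044, minus strand) held 23 CG dinucleotides and no H3K4me1 interval in either list. The NC interval nearest to the 5′ end lay further upstream, in intergenic sequence, and 200 bases around its summit (chr12:49061514-49061713) held 2. The KMT2D-KD interval with the highest −log10 q at KMT2D was in intron 1, and 200 bases around its summit (chr12:49057407-49057606) held 1. CG dinucleotides are in capitals, and all 3 sequences are on the minus strand, from 5′ to 3′ along the gene.
KMT2D promoter: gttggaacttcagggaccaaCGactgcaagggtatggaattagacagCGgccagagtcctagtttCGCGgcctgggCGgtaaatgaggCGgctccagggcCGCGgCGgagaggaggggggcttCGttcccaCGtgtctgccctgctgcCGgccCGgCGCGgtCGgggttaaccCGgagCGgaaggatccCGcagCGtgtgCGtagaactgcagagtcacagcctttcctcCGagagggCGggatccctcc
KMT2D upstream, NC: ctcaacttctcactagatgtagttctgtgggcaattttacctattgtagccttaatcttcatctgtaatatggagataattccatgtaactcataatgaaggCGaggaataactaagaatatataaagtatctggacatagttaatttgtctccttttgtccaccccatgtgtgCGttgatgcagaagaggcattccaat
KMT2D intron 1, KMT2D-KD: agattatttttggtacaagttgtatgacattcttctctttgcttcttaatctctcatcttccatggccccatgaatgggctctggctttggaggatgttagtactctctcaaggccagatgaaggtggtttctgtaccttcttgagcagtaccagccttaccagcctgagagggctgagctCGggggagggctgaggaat

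RefSeq promoters of 300 bases (250 before the start and 50 after) were matched for 8 of the 10 genes, and they held a median of 35 CG dinucleotides, from 20 at KDM5A to 56 at KMT2C. Over 35116 promoters the median was 14. In the 200 bases around the H3K4me1 summits of the member windows the median was 1 in NC (0 to 5) and 1 in KMT2D-KD (0 to 7), and over the whole lists it was 1 and 2. Low CG content around summits was thus not particular to these genes. Few of the genes had an interval at their start. In NC, 1 gene of 10 had an interval within 1 kb of its 5′ end, against 6.43% of all protein-coding genes. In KMT2D-KD this number was 0, against 11.9%. Within 5 kb the number was 3 in NC (KMT2D, NCOA6 and KDM5B), against 30.2%, and 5 in KMT2D-KD (the same genes with KMT2C and KDM5A), against 42.9%. By annotation, 32 of 36 NC intervals and 44 of 54 KMT2D-KD intervals were intronic, and 1 KMT2D-KD interval, at NCOA6, overlapped a coding exon. Exons were read for the member gene, or outside its body for 1 overlapping gene, so exons of a further overlapping gene were not counted.

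Across the 10 windows, H3K4me1 intervals were more numerous in KMT2D-KD than in NC by about as much as in the whole lists. The log2 ratio of 54 to 36 was 0.58, with a 95% counting interval of −0.05 to 1.24, and that of the whole lists was 0.51 (0.49 to 0.52). Covered bases were 14983 in NC against 22912 after knockdown, for a log2 ratio of 0.61 compared with 0.62 for the whole lists. Mean interval width was close in both conditions, 416 bases in NC and 424 in KMT2D-KD, while the median was 335 and 297.5 bases. With the knockdown list limited to its top intervals so that both lists had equal numbers, the windows held 36 NC and 31 KMT2D-KD intervals, a log2 ratio of −0.22 (−0.96 to 0.52). The number of intervals was higher in KMT2D-KD at 10 of 10 genes, and the same was true of 73.1% of all genes with an interval. This count included intervals nearer to the start of another gene. Only 20 NC and 30 KMT2D-KD intervals lay nearest to the 5′ end of the member itself. Of these, KMT2B and KDM1A each had 1 in NC and 0 in KMT2D-KD, KDM5A had 1 in each, and the other members had more in KMT2D-KD. The counting intervals of the ratios above cover counting error only.

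**Figure D1:**
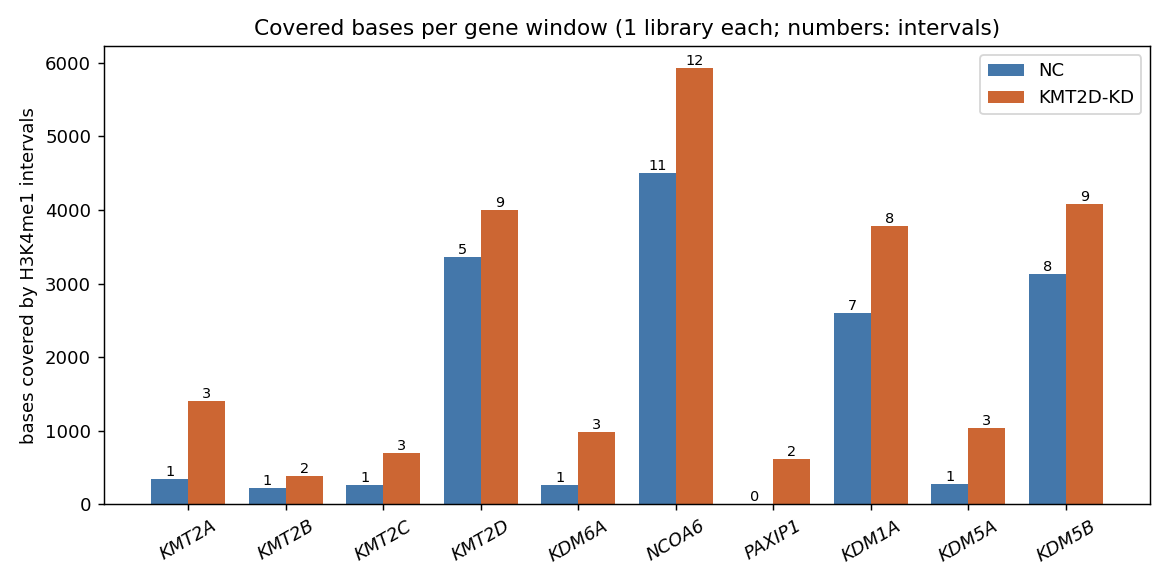
Bases covered by H3K4me1 intervals (vertical axis, from 0) in the window of each gene, with NC in blue and KMT2D-KD in orange, 1 library each, and the number of intervals above each bar. NCOA6 had the most covered bases in both conditions, 4508 and 5932, and PAXIP1 had 0 in NC and 619 in KMT2D-KD.

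The genes fell into a well covered and a thinly covered group, and the ratio of KMT2D-KD to NC was higher in the thin one. KMT2D, NCOA6, KDM1A and KDM5B had at least 5 intervals over both lists, together 31 from NC and 38 from KMT2D-KD (log2 ratio 0.29, −0.43 to 1.03). None of these 4 genes reached a 1.5-fold difference in covered bases over the whole window, whereas 61.7% of all genes with at least 5 intervals were at least 1.5-fold higher and 2.91% at least 1.5-fold lower. This depended on the window. In the gene body alone KMT2D was past the fold (1521 bases in NC, 2338 in KMT2D-KD) and KDM1A was lower in KMT2D-KD (191 and 0), and with only the intervals nearest to its own 5′ end NCOA6 was past it (1581 and 3216) and KDM1A again lower. Over the whole window their median log2 ratio of covered bases was 0.39, against 0.77 over all such genes covered in both lists. KMT2A, KMT2B, KMT2C, KDM6A, PAXIP1 and KDM5A had fewer than 5, with 5 intervals in NC and 16 in KMT2D-KD together. All 6 were at least 1.5-fold higher in KMT2D-KD, PAXIP1 being counted here with 0 bases in NC, and among all genes with 1 to 4 intervals this was so for 67.9%, with 15.4% at least 1.5-fold lower. The log2 ratio of intervals was 1.68 (0.16 to 3.48) in this group, and its counting interval overlapped that of the well covered genes. A gene with so few intervals can pass or miss the fold by a single one. The split by roles gave 8 NC and 17 KMT2D-KD intervals for the methyltransferases (log2 ratio 1.09, −0.20 to 2.51), 12 and 17 for the complex partners (0.50, −0.65 to 1.70), and 16 and 20 for the demethylases (0.32, −0.70 to 1.37). The counting intervals of the 3 roles overlapped and each included 0.

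**Figure D2:**
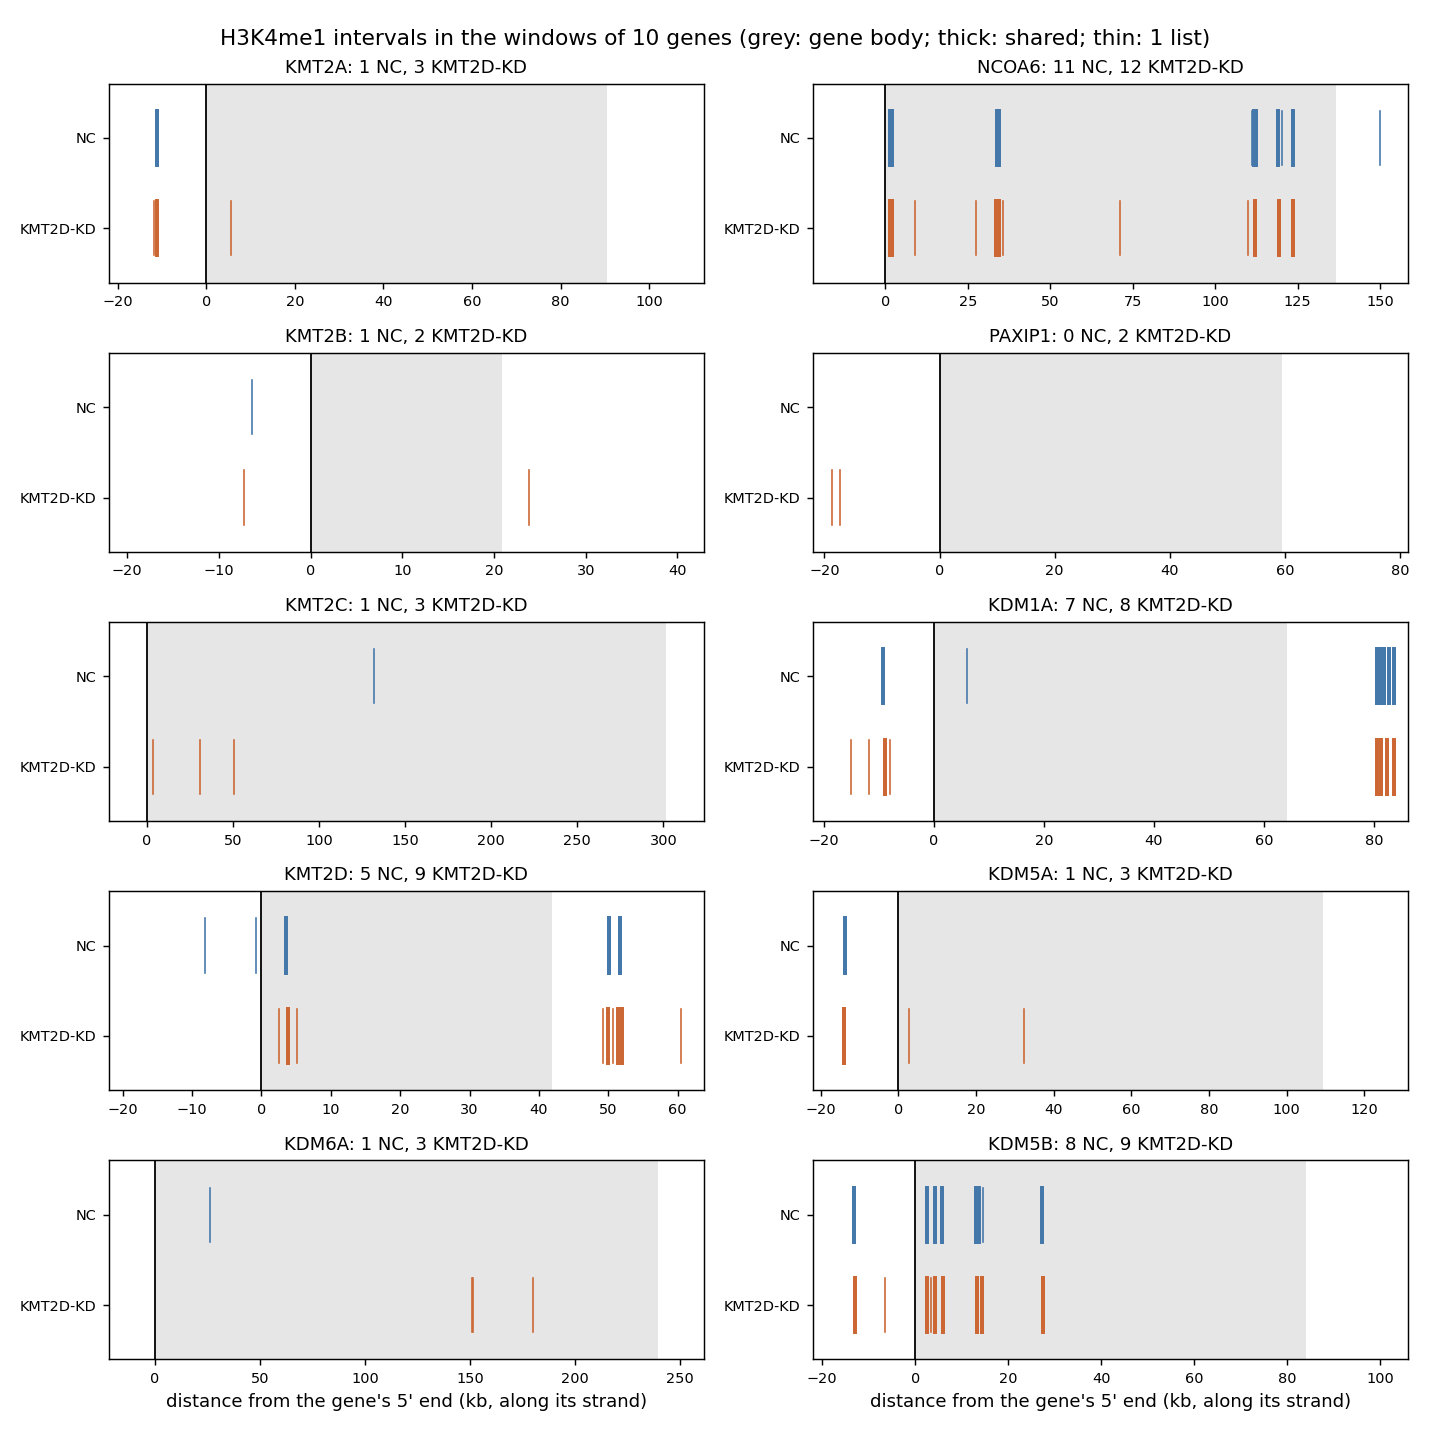
Each panel shows the window of a gene, with distance from its 5′ end in kb along its strand on the horizontal axis, the gene body in grey, NC intervals in blue (upper row) and KMT2D-KD intervals in orange (lower row). Thick marks are intervals that overlap one of the other list and thin marks are intervals of 1 list, and the dense clusters of KMT2D, NCOA6, KDM1A and KDM5B recur in both rows.

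Values in parentheses after an interval are its fold enrichment and its summit fragments. For a region in both lists, the values are those of the strongest summit of each list, and these summits lay 10 to 917 bases apart (median 193), so that they need not be the same position. KMT2D (chr12:49018975-49060794, minus strand), the knockdown target, had 5 intervals over 3368 bases in NC and 9 over 3998 bases in KMT2D-KD. The densest intervals inside the gene were in intron 1, in a region from chr12:49056114 to 49057982 that began 2812 bases inside the gene. This region was in both lists, with a fold enrichment of 3.92 and 15 summit fragments in NC, and 5.13 and 19 in KMT2D-KD, at summits 917 bases apart. In KMT2D-KD intervals of 13 fragments at 2296 bases and 11 fragments at 4965 bases flanked it. Upstream of the gene the order was the opposite. The interval 588 bases from the 5′ end (chr12:49061382-49061716, fold enrichment 3.30, −log10 q 2.22, 10 fragments) and the one 8012 bases upstream, in intron 2 of RHEBL1 (3.24, 12 fragments), were listed in NC alone. Each of these NC intervals was weak, so their absence from the knockdown list does not set the levels apart. Downstream of the gene a second cluster lay in intron 2 of PRKAG1, which encodes a subunit of AMP-activated kinase. It held 2 regions in both lists, with 18 and 13 fragments in NC against 17 and 11 in KMT2D-KD. The region with 18 NC fragments comprised 1 interval in NC and 2 in KMT2D-KD. The cluster also held intervals of 10 and 9 fragments that were listed in KMT2D-KD alone. In KMT2D-KD alone an intergenic interval lay 60335 bases from the 5′ end of KMT2D (4.52, 14 fragments), toward DDN.

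The other methyltransferases carried few intervals. KMT2A (chr11:118436456-118526832, plus strand) had 1 in NC and 3 in KMT2D-KD. A region 10783 bases upstream, in an intron of ATP5MG, was in both lists with 12 summit fragments in each, although its fold enrichment was 4.56 in NC and 4.93 in KMT2D-KD. Beside it, 11507 bases upstream, lay a KMT2D-KD interval of 8 fragments. KMT2A also had one in its own intron 1, 5556 bases in (4.55, 11 fragments), listed in KMT2D-KD alone. KMT2B (chr19:35717973-35738880, plus strand) had none in its gene body. Its NC interval lay 6324 bases upstream in intron 1 of ZBTB32 (4.62, 14 fragments), and its KMT2D-KD intervals lay 7198 bases upstream in the same intron (10 fragments) and 23761 bases from the start in intron 1 of IGFLR1 (4.17, 10 fragments). KMT2C (chr7:152134922-152436644, minus strand), the closest relative of KMT2D, shared no interval between the conditions. It had 1 NC interval in intron 6 (4.21, 11 fragments) and 3 KMT2D-KD intervals in intron 1, at 3531, 31082 and 50558 bases from the 5′ end. The one at 50558 bases was the strongest (5.31, −log10 q 5.77, 13 fragments). The one at 31082 bases had 20 fragments but a fold enrichment of 2.64, since its background was 6.97 fragments, the highest of all intervals in these windows. KMT2C has near-identical partial copies elsewhere in the genome, and how multiply mapped reads were treated is not given in the sources used here.

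Among the named intervals of the methyltransferases, 4 held the AP-1 motif TGANTCA within 200 bases around the summit. They were the KMT2D-KD interval of the shared upstream region of KMT2A, the NC interval of KMT2B in ZBTB32, the KMT2D-KD interval of KMT2C at 50558 bases and the KMT2D-KD interval downstream of KMT2D. The sequences at KMT2B (chr19:35711479-35711678, plus strand) and KMT2D (chr12:49000314-49000513, minus strand), an NC and a KMT2D-KD interval that were each in 1 list, are printed with the motif in capitals, on the strand of the gene.
KMT2B, NC: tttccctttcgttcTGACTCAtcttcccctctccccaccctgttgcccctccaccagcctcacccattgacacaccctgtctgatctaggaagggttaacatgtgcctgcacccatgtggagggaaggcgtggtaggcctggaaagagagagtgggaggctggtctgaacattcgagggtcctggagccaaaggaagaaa
KMT2D downstream, KMT2D-KD: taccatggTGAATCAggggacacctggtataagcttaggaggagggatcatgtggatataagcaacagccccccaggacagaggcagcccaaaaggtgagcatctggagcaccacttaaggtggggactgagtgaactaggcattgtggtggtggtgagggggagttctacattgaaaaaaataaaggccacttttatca
Searched on both strands over all intervals of the windows, this motif was at 2 of 36 NC summits (5.56%, 0.68% to 18.7%) and 5 of 54 KMT2D-KD summits (9.26%, 3.08% to 20.3%), against 8.06% and 7.78% of the whole lists. The forkhead motif TGTTTAC was at 2 NC summits and 1 KMT2D-KD summit, against 3.16% and 2.74% of the whole lists. Neither share differed from its whole list beyond counting error, and a match of letters is a description of the sequence only.

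Of the complex partners, NCOA6 (chr20:34689097-34825651, minus strand), a coactivator subunit, had the most intervals of all 10 genes, 11 in NC over 4508 bases and 12 in KMT2D-KD over 5932 bases. Close to its start, 2 regions in intron 1 at 1231 and 1667 bases were in both lists, with 13 and 12 fragments in NC and 12 and 12 in KMT2D-KD. The region with the highest −log10 q of all KMT2D-KD intervals in the windows was in intron 2, from chr20:34790805 to 34791623, 34028 bases in. It had a fold enrichment of 4.49, a −log10 q of 4.83 and 15 fragments in NC, and 6.41, 9.70 and 20 in KMT2D-KD. The summits were 273 bases apart, and the ratio of 20 to 15 fragments was 0.42 on the log2 scale, with a counting interval of −0.62 to 1.48. Toward the 3′ end, where TP53INP2 (an autophagy gene on the opposite strand) overlaps NCOA6, regions at 111451 and 118631 bases were in both lists, with 14 and 11 fragments in NC and 14 and 13 in KMT2D-KD. The region at 123484 bases went the other way, with 15 fragments in NC and 8 in KMT2D-KD. NCOA6 also had 3 intervals in NC alone and 5 in KMT2D-KD alone, and of the latter the strongest had a fold enrichment of 3.65. Of the former, the one with the highest −log10 q lay downstream of the gene, in an intron of PIGU (4.11, 15 fragments).

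KDM6A (chrX:44873188-45112779, plus strand) and PAXIP1 (chr7:154943687-155003124, minus strand) shared no interval between the conditions. KDM6A had 1 NC interval in intron 2 (3.51, 9 fragments) and 3 KMT2D-KD intervals, in introns 6 and 9, of 8 to 11 fragments. PAXIP1, which encodes an adaptor with BRCT domains, had no NC interval and no interval in its gene body in either list. Its KMT2D-KD intervals lay 17271 and 18417 bases upstream, with 7 and 15 fragments. The farther one (chr7:155021541-155021981, fold enrichment 6.07, −log10 q 7.44) was the strongest interval in these windows that was listed in KMT2D-KD alone. With 0 NC intervals no ratio was formed for this gene. The sequence around the strongest KMT2D-KD summit of the complex partners, that in intron 2 of NCOA6, is printed in lower case, since no AP-1 or forkhead motif lay in it (chr20:34791308-34791507, minus strand).
NCOA6, KMT2D-KD: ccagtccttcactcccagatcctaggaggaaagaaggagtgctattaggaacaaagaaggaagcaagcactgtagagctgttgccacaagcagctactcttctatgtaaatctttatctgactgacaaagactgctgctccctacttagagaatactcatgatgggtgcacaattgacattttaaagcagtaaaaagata

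Of the demethylases, KDM1A (chr1:23019443-23083689, plus strand), the enzyme that removes the mark, had 7 intervals in NC over 2606 bases and 8 in KMT2D-KD over 3778 bases. All but 1 of them lay outside its gene body. The exception was an NC interval in intron 1, 5924 bases in (3.37, 9 fragments). The region 8576 bases upstream (chr1:23009919-23010867) overlaps TEX46, whose start lies 343 bases from that of KDM1A on the opposite strand. It had a fold enrichment of 4.14, a −log10 q of 3.45 and 11 fragments in NC, and 6.69, 9.05 and 17 in KMT2D-KD, which was the highest fold enrichment in these windows. The summits were 179 bases apart, and the log2 ratio of fragments was 0.63, with a counting interval of −0.55 to 1.87. The KMT2D-KD interval nearest to the 5′ end lay 7906 bases upstream, in intron 2 of TEX46. It was listed in KMT2D-KD alone (4.52, 14 fragments). Downstream, a cluster of 4 regions in LUZP1, between 80398 and 83579 bases from the 5′ end of KDM1A, was in both lists with 9, 10, 16 and 14 fragments in NC and 9, 12, 14 and 15 in KMT2D-KD. KDM1A thus had its intervals beside neighbouring genes, 5 of 7 in NC and 6 of 8 in KMT2D-KD being within another protein-coding gene.

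KDM5B (chr1:202724495-202808487, minus strand) had 8 intervals in NC over 3137 bases and 9 in KMT2D-KD over 4075 bases, and 7 of each list were shared. They lay along the first part of intron 1, with regions in both lists at 2214, 3977, 5465, 12799 and 27161 bases from the 5′ end and at 12573 bases upstream. Summit fragments at the intronic regions were, in this order, 10, 12, 15, 17 and 10 for NC, against 10, 14, 9, 16 and 12 for KMT2D-KD. The region at 5465 bases held the highest fold enrichment and −log10 q of NC in these windows, 5.62 and 6.33, and was weaker in KMT2D-KD at 3.79 and 2.81. Its summits were 355 bases apart, and the fragment ratio was −0.74 on the log2 scale, with a counting interval of −2.11 to 0.55. The region at 12799 bases had a fold enrichment of 4.40 in NC and 5.77 in KMT2D-KD, with 17 fragments in NC and 16 in KMT2D-KD at summits 404 bases apart. An interval at 14457 bases, in intron 1, was the strongest in these windows that was listed in NC alone (5.27, −log10 q 5.59, 14 fragments). It ended at chr1:202794030, and a KMT2D-KD interval of the region at 12799 bases began close by at chr1:202794090. Its listing in NC alone thus rested on the rule that shared intervals overlap by at least 1 base. Of the KDM5B intervals listed in KMT2D-KD alone, the strongest lay at 3106 bases in intron 1 (4.17, 10 fragments).

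KDM5A (chr12:280057-389320, minus strand) had 1 interval in NC and 3 in KMT2D-KD. The region in both lists lay 13563 bases upstream, in intron 1 of CCDC77, a gene that starts 47 bases from KDM5A on the opposite strand. It held 11 fragments in each condition, at summits 330 bases apart, with a fold enrichment of 3.46 in NC and 4.38 in KMT2D-KD. In KMT2D-KD alone KDM5A had intervals in intron 1 at 2586 bases (4.75, 12 fragments) and in intron 5 at 32295 bases (3.54, 9 fragments).

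Over the 10 windows the lists named the same places about as often as elsewhere in the genome. Of the 36 NC intervals, 26 overlapped a KMT2D-KD interval (72.2%, 54.8% to 85.8%), against 69.7% of the whole list. Of the 54 KMT2D-KD intervals, 25 overlapped an NC interval (46.3%, 32.6% to 60.4%), against 46.6%. Merging overlapping intervals gave 62 regions, of which 23 were in both lists (37.1%), 10 in NC alone (16.1%) and 29 in KMT2D-KD alone (46.8%), and over the whole lists these shares were 36.7%, 18.1% and 45.2%. In the well covered genes 24 of 31 NC intervals were found in KMT2D-KD and in the thin ones 2 of 5, too few to set the groups apart. Intervals found in 1 list were the weaker ones by their median −log10 q, 2.94 in NC and 2.51 in KMT2D-KD, against 3.90 and 4.75 for shared intervals. Single values in 1 list ranged from 1.70 to 5.59 in NC and from 1.52 to 7.44 in KMT2D-KD. Intervals with a −log10 q of at least 5 made up 13.9% of NC (4.67% to 29.5%) and 22.2% of KMT2D-KD (12.0% to 35.6%), against 25.3% and 32.4% of the whole lists.

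At the 23 regions in both lists, fold enrichment and fragments gave different pictures. Fold enrichment was higher in KMT2D-KD at 17 of 23, and over the whole lists this was so at 66% of 39989 regions. The median log2 ratio of fold enrichment was 0.17, the same as over the whole lists. Summit fragments, in contrast, were higher in KMT2D-KD at 9 regions, equal at 6 and lower at 8, and over the whole lists they were higher at 51.1%, lower at 38.0% and equal at the rest. At the 13 regions whose compared summits lay within 200 bases of each other, fold enrichment was higher in KMT2D-KD at 10, and fragments were higher at 5, equal at 4 and lower at 4. The background under the summit was lower in KMT2D-KD at 21 of the 23 regions. At every one of the 23 regions the counting interval of the fragment ratio included 0. A difference between the strongest summits of a shared region was thus not detectable at this depth.

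**Figure D3:**
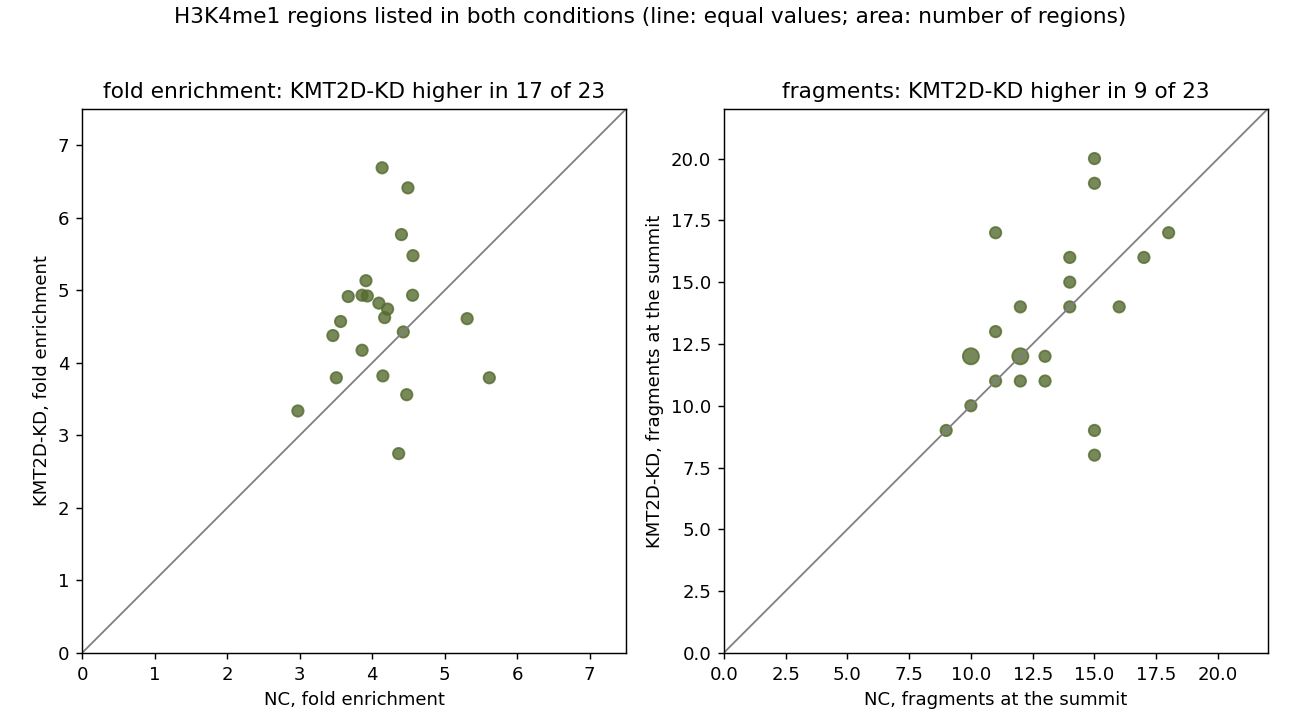
The 23 regions of the windows that were in both lists, with fold enrichment over the background (left) and fragments at the summit (right). NC is on the horizontal and KMT2D-KD on the vertical axis. The line marks equal values and larger points are several regions with the same values. In fold enrichment 17 points lie above the line, and in fragments 9 do.

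KMT2D and EBF2 were not listed at these genes. The lists of KMT2D comprised 238 (NC) and 318 (KMT2D-KD) intervals and those of EBF2 comprised 293 and 311, and 0 of them lay in any of the 10 windows. The nearest lay between 0.146 and 46.3 Mb from the 5′ end of a gene, with a median of 4.48 Mb over 10 genes and 4 lists. None of these lists held more than 318 intervals. The share of all protein-coding genes with such an interval in their window was not counted, so the absence here does not set the 10 genes apart.

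The other genes of the H3K4 methylation machinery followed the whole lists in number of intervals. Over 17 such genes there were 71 NC intervals and 99 after knockdown, a log2 ratio of 0.48 (0.03 to 0.94) against 0.51 over the whole lists. PSIP1 and HCFC1 had no interval in either list. Of the other 15 genes 12 had more intervals in KMT2D-KD, against 73.1% of all genes with an interval, 1 had equal numbers and 2 had fewer. In covered bases 5 of the 11 genes with at least 5 intervals were at least 1.5-fold higher in KMT2D-KD, against 61.7% of all such genes, and 1 was lower, against 2.91%. The remaining 4 that were at least 1.5-fold higher had 1 to 4 intervals, where the share of all genes was 67.9%. Of those covered in both lists MEN1, a scaffold of the KMT2A and KMT2B complexes, was furthest up. It went from 1 interval over 219 bases in NC to 3 over 805 in KMT2D-KD, so few that a single interval weighs heavily. RCOR1, the CoREST partner of KDM1A, was furthest down, from 9 intervals over 3688 bases in NC to 4 over 1178 in KMT2D-KD, and 1 of the 9 was shared. PAGR1, the partner of PAXIP1, had 4 intervals over 2641 bases in NC and 10 over 6624 in KMT2D-KD, and all 4 of NC were shared. KDM5C had 2 intervals over 813 bases in NC and 3 over 1214 in KMT2D-KD. WDR82, a subunit of the SETD1A and SETD1B complexes that was singled out after its values were seen, had 0 intervals in NC and 7 over 2023 bases in KMT2D-KD.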

How the data were processed

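ChIP-seq of KMT2D, EBF2 and H3K4me1 was carried out in NC and KMT2D-KD SW1990 cells, and samples were grouped by their titles. The submitters' processing notes name BWA, MACS2, HOMER and hg38, and settings are not given in the sources used here. The authors deposited 6 peak lists of 10 columns, each called on 1 library against input, with a fold enrichment (ratio) at the summit. The deposited lists also hold −log10 p-values and −log10 q-values.

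Intervals were counted on hg38 from 1, and those overlapping by at least 1 base were taken as shared. The 5′ end was the first base of the GENCODE gene record. Fragments and background at a summit were solved from fold enrichment as (fragments + 1) / (background + 1) and the Poisson p-value, to within 0.001 in −log10 p. This returned whole fragments for 64839 of 64843 H3K4me1 intervals in NC and for 92128 of 92135 after knockdown. The genome background was the lowest value of a list, and the narrowest interval (187 and 176 bases) was taken as fragment length for depth. Shares have exact binomial (Clopper-Pearson) 95% intervals, and ratios are on the log2 scale, KMT2D-KD over NC, with limits computed from the same intervals. Both cover counting error only. The members and lists were chosen with earlier results of these data known. All members were named, with the nearest, the highest −log10 q and the highest unshared interval, and further regions in both lists. The counting and depth steps were tested on simulated data. Python 3.11.15, numpy 2.4.6, scipy 1.17.1, pysam 0.24.0 and samtools 1.23.1 were used. Other thresholds, windows, list sizes and overlap rules were tried. The input had no list of its own. Some interval sequences are not reported here.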

Additional observations from a re-analysis of the deposited data

How the results depend on the processing

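No paired analysis was possible because each target had 1 library per condition. Of 49 values under other settings, 33 stayed within the counting interval of the reported value, or within 1.5 times a reported count, and 16 moved. Ratios of covered bases have no counting interval of their own and were judged by that of the ratio of intervals. When both lists were limited to a −log10 q of 5 or more, 5 NC and 12 KMT2D-KD intervals were left. The log2 ratio of intervals was then 1.26 (−0.35 to 3.12) and that of covered bases 1.79. The whole lists also held more KMT2D-KD intervals at this cut, 29832 against 16393 in NC. In the windows, 40% of NC and 16.7% of KMT2D-KD intervals were then found in the other list. At this cut 0 genes had an NC interval within 1 kb of the 5′ end. With equal numbers of top intervals the log2 ratio of intervals was −0.22, and 64.5% of KMT2D-KD intervals were found in NC. This share was 31.5% when at least 50% of the interval had to overlap and 64.8% when intervals within 1000 bases counted as shared. In the gene body alone 1 gene, KDM1A (191 bases in NC, 0 in KMT2D-KD), was at least 1.5-fold lower in KMT2D-KD. With intervals nearest to the 5′ end of the member, 2 were lower, KDM1A and KMT2B (217 and 0 bases). Among the well covered genes, KMT2D passed 1.5-fold higher in the gene body alone and NCOA6 with the nearest intervals. Genes with an interval near the 5′ end numbered 3 in NC and 4 in KMT2D-KD within 3000 bases, and 3 and 3 when any transcript start counted. With 50 kb on either side 1 NC KMT2D interval was included, at KDM5A. Apart from the construction of each setting, the cause of these shifts was not tested. Summits of about 12 fragments limit what can be seen at a single region.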

Other observations

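The NC KMT2D interval nearest to any of the 10 genes was at chr12:243116-243315, 36741 bases beyond the 3′ end of the KDM5A gene body, at 4.62 times its background (−log10 q 2.09). DPY30 and SETD7, of the other machinery genes, had a KMT2D-KD interval within 1 kb of the 5′ end, at 992 and 513 bases, and neither had an NC interval there. These 2 of 17 genes compare with 11.9% of all protein-coding genes in KMT2D-KD, and 0 of 17 with 6.43% in NC.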
